A study of Mus musculus with 31 samples.

Results

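The PAR bZIP transcription factors (TFs) HLF, TEF and DBP, together with their antagonist NFIL3, are encoded by 4 mouse genes, Hlf, Tef, Dbp and Nfil3, out of the 21911 protein-coding genes on the assembled chromosomes of the GENCODE annotation. All 4 were followed through the ATAC-seq peaks, the accessible regions of chromatin, that were called in the parental line of NIH-3T3, and 35 of the 63456 peaks of the list fell at these genes or within 50 kb of them. Hlf was chosen by its measured values, for its open promoter among the genes of the TFs that the series overexpresses, and the other 3 genes were taken with it as its family. Fold enrichments, −log10 q and peak counts are therefore a description and were put to no test.

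The series holds 31 ATAC-seq samples of NIH-3T3 cells, an established mouse fibroblast line. The sample described here is the parental line, with no TF transgene. Its labels list no doxycycline, whereas the methods give it for the NIH-3T3 cells of the ATAC-seq experiments in general, so that whether this culture received it is not settled by the sources used here. The other 30 samples, with 13 TFs overexpressed in 2 replicates each (HA-tagged HLF among them) or with the doxycycline-dependent activator rtTA3G alone in 4 control samples, received 500 ng/ml of doxycycline for 48 h and were not analysed here. Nuclei of 50000 cells were cut with 0.5 µM of the transposase Tn5, which inserts adapters into DNA free of nucleosomes, and the labels give 12 cycles of PCR. With 1 library there was no replicate and no comparison between samples, so every value below describes this library.

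PAR bZIP proteins bind as dimers to a palindromic element called the D-box and activate genes of detoxification, metabolism and the circadian output in liver, kidney and brain. NFIL3, also known as E4BP4, has a closely related DNA-binding domain, occupies the same element and mostly represses. The genes of the family are themselves clock-controlled. CLOCK and BMAL1 act on E-boxes, which drive Dbp, whereas ROR activators and REV-ERB repressors act on ROR elements, which are a known route to Nfil3.

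The sequences that distinguish the 4 loci are shown first, since they carry searched elements at the open regions of each gene. All are from the RefSeq mouse genome GRCm38.p6, the mm10 build of the peak list, and read 5′ to 3′ in the direction of transcription of the gene. Capitals mark a match to a searched element on either strand. In the Hlf promoter, chr11:90390918-90391077 on the minus strand, the capitals are a cAMP response element.
Hlf promoter: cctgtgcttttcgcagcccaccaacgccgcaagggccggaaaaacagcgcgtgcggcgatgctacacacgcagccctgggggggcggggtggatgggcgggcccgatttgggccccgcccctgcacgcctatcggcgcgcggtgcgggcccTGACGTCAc
In the open region upstream of Hlf, chr11:90418029-90418219 on the minus strand, the capitals are 4 E-boxes and, after the first 2 of them, 1 ROR element.
Hlf upstream peak: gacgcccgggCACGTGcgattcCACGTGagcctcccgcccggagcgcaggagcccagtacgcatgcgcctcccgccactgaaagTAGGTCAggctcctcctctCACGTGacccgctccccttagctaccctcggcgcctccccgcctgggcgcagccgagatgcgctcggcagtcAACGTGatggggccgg
At the internal promoter of Tef, chr15:81810920-81811042 on the plus strand, the capitals are an E-box and a CCAAT box read on the other strand.
Tef internal promoter: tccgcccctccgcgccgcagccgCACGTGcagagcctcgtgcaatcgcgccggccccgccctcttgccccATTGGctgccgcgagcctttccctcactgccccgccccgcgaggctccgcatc
The other 3 E-boxes of the Tef promoter peaks are shown as short sites at chr15:81802539-81802558, chr15:81811047-81811066 and chr15:81811269-81811288, in that order.
Tef site 1: gtggctcCACGTGctgcagc
Tef site 2: gccgctcCACGTGaccctcg
Tef site 3: ggcccagCACGTGtctacat
In the Dbp promoter, chr7:45704837-45705034 on the plus strand, the capitals are 4 CCAAT boxes read on the other strand and 1 ROR element.
Dbp promoter: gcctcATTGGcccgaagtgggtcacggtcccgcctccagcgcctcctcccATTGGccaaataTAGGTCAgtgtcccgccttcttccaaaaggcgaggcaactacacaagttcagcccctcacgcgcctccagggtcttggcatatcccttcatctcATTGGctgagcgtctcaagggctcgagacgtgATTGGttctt
In the open region inside Dbp, chr7:45707705-45707844 on the plus strand, the capitals are 3 E-boxes.
Dbp intron 2: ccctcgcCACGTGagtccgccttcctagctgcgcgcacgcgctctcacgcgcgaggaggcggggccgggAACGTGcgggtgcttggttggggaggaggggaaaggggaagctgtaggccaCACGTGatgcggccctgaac
In the first intron of Nfil3, chr13:52980570-52980721 on the minus strand, the capitals are 2 D-boxes, and the short site at chr13:52981036-52981060 holds a ROR element next to the start of the gene.
Nfil3 intron 1: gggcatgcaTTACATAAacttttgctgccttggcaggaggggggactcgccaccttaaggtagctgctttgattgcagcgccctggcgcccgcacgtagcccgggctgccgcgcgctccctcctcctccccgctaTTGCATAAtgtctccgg
Nfil3 site: gctcggaacTGACCTActaacacac

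All 4 genes had a peak within 1 kb of a transcription start site (TSS), where 53.7% of all protein-coding genes did. Because the rule rests on this measure, nothing is read from the count. A fold enrichment is the number of fragments over the peak's summit divided by the number the peak caller expected there, with 1 added to each. The strongest promoter peak reached a fold enrichment of 13.69 at Hlf, 9.65 at Tef, 7.8 at Dbp and 4.03 at Nfil3. Among all coding genes with a promoter peak these values stood at the percentiles 84.5, 47.6, 29.7 and 4.4, so that Hlf lay in the upper range, Tef near the middle and Nfil3 close to the bottom.

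The fragments at the summit, solved from the fold enrichment and the −log10 p of each peak, gave the counting error. The Hlf promoter summit lay under 80 fragments (95% exact Poisson interval 63.4 to 99.6) where 4.92 were expected. The internal promoter of Tef lay under 122 fragments (101.3 to 145.7) where 11.75 were expected, and the Dbp promoter under 71 (55.5 to 89.6) where 8.24 were expected. The Nfil3 promoter lay under 25 fragments (16.2 to 36.9) where 5.46 were expected. These intervals and those of the fold enrichments, which take the expected number as fixed, cover counting error only. The order therefore depends on the measure. By fold enrichment Hlf came first, its interval of 10.89 to 16.99 overlapped that of Tef (8.03 to 11.51) and did not overlap that of Dbp (6.11 to 9.81). The intervals of Tef and Dbp overlapped, and that of Nfil3 (2.66 to 5.87) lay below all others. By fragments Tef came first, Hlf and Dbp overlapped, and Nfil3 was again the lowest.

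**Figure D1:**
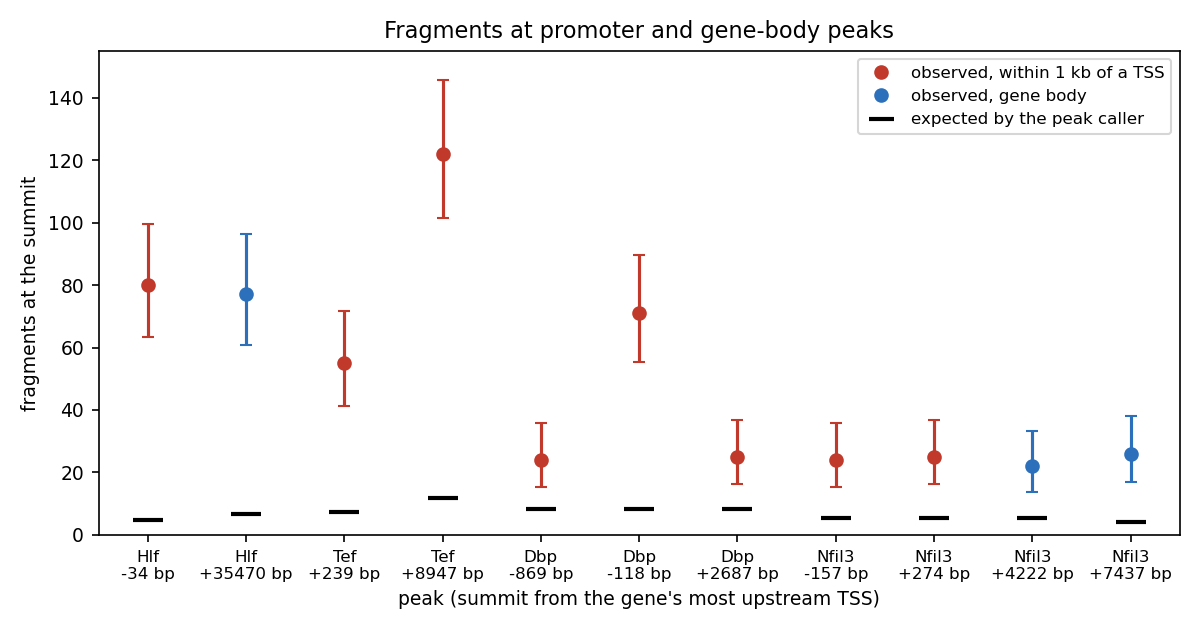
Fragments at the summit (vertical axis) of the 11 peaks within 1 kb of a TSS or in the body of the 4 genes, each named by its gene and by the distance of its summit from the most upstream TSS in bp. Points are observed numbers with 95% exact Poisson intervals and black bars are the numbers expected by the peak caller; Tef at +8947 bp has the most fragments (122), and the 4 Nfil3 peaks lie between 22 and 26.

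Hlf, which spans 54.4 kb of chromosome 11 (chr11:90336536-90390895, minus strand), encodes hepatic leukemia factor. It had 1 peak at its promoter, 1 in its body and 5 in its flanks. The promoter peak (chr11:90390659-90391161) was 503 bp wide and had a −log10 q of 63.23. Among all promoter peaks it ranked at the percentile 89.3 by fold enrichment and 76.9 by fragments. It covered 1 of the 6 annotated TSSs of the gene, that of the protein-coding transcript Hlf-201, and its summit lay at −34 from this TSS. It was rich in CpG, with an observed over expected ratio of 0.91 and 66.2% GC against medians of 0.68 and 59.3% over all promoter peaks. The other protein-coding transcript, Hlf-206, starts 2686 bp from this peak, and no peak lay at its TSS. Hlf-202 starts 969 bp from the peak, just within the 1 kb that counts as a promoter, and Hlf-205 starts 1069 bp away, just outside it.

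The only searched element in the Hlf promoter peak was the cAMP response element TGACGTCA, the palindrome to which CREB and ATF proteins bind, at −31 from the TSS and 7 bp from the summit. It is the run of capitals that closes the first sequence above. This element occurred in 3.5% of all promoter peaks, and in 1.36% within 50 bp of the summit.

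At 3 regions away from the promoter, peaks counted for Hlf had fold enrichments above 10. In intron 2, a peak of 703 bp (chr11:90355221-90355923) had a fold enrichment of 10.11 (8.01 to 12.6) with 77 fragments. It was poor in CpG, with a ratio of 0.2, and held none of the searched elements. Upstream, with its summit at −27133, a peak of 451 bp (chr11:90417846-90418296) had a fold enrichment of 11.17 (8.71 to 14.12) with 68 fragments. At the far downstream end a peak of 731 bp (chr11:90286502-90287232), which straddles the 50 kb limit, had a fold enrichment of 11.57 (9.33 to 14.19) with 90 fragments and held an AP-1 element. The fold intervals of all 3 overlapped that of the promoter. The 3 remaining downstream peaks were weaker, with fold enrichments of 3.15 to 5.02 and 12 to 20 fragments.

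The upstream peak of Hlf stood apart in its sequence. It lay more than 1 kb from every annotated TSS of any gene, but its GC content of 68.7% was reached by only 0.186% of the 47192 peaks of this distal class, and its CpG ratio of 0.81 by 0.581%. Medians of the distal class were 47.4% and 0.19. It held 3 copies of the E-box CACGTG, 1 of the E-box CACGTT, 1 ROR element and 1 CCAAT box. At least 4 E-boxes were found in 13 distal peaks, or 0.0275%, and at least 3 copies of CACGTG in the same number. Promoter peaks, with medians of 59.3% GC and a CpG ratio of 0.68, are nearer to it in base composition. Of these, 0.307% held at least 4 E-boxes and 0.48% at least 3 copies of CACGTG. The part of base composition in the number of E-boxes was not tested. The CACGTT site lay 13 bp from the summit, and the copies of CACGTG lay 85, 166 and 178 bp from it. None of the 5 flank peaks of Hlf lay at the promoter of another gene. The nearest coding genes, Mmd downstream and Stxbp4 upstream, are 57946 and 85596 bp from the ends of Hlf. The far downstream peak and some of the weaker downstream peaks lie nearer to Mmd than to Hlf. Accessibility at these peaks cannot be assigned to Hlf.

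Tef, which encodes thyrotroph embryonic factor, spans 24.4 kb of chromosome 15 (chr15:81802421-81826863, plus strand) and had 2 promoter peaks, none elsewhere in its body and 5 in its flanks. The peaks covered 7 of its 10 annotated TSSs. The upstream one (chr15:81802392-81802998) was 607 bp wide, covered 5 TSSs including that of the protein-coding transcript Tef-202, and had a fold enrichment of 6.73 (5.1 to 8.73) with 55 fragments where 7.32 were expected. Its summit lay at +239, in the untranslated first exon of Tef-202. The TSS of the gene Gm17597 lies within 1 kb of the same peak, so accessibility there cannot be assigned to Tef alone. The internal one (chr15:81810191-81811857) was 1667 bp wide, against a median of 629 bp for promoter peaks, and covered the TSSs of the protein-coding transcripts Tef-206 and Tef-201. It had the highest −log10 q of all member peaks, 74.7. Its fragments ranked at the percentile 93.8 of promoter peaks and its fold enrichment at 62.6.

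The 2 Tef promoters differed in base composition. The CpG ratio was 0.23 at the upstream start and 0.77 at the internal one, although GC contents were alike at 61.8% and 63.6%. Both held E-boxes of the form CACGTG. The upstream peak had 1 copy, 112 bp from its summit, and the internal peak had 3, between 90 and 423 bp from its summit. At least 3 copies were found in 0.48% of promoter peaks. A wider peak has more positions at which a match can occur, and the internal Tef peak is wide. The peaks also held 3 and 4 CCAAT boxes. In the flanks, peaks reached fold enrichments of 4.16 to 7.24 and 37 to 50 fragments. Of these 5 peaks, 3 lie at the promoters of neighbouring genes, 2 of them at Tob2. The others, with summits at +29210 and +43423, had fold enrichments of 6.99 and 6.03 and held 1 ROR element and 2 AP-1 elements respectively. A peak 56574 bp upstream lay just outside the limit of 50 kb, with a fold enrichment of 6.17, at the promoters of Rangap1 and Zc3h7b.

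Dbp, which encodes D-site binding protein, is the most compact of the 4 genes (5.1 kb, chr7:45705088-45710203, plus strand) and had 3 peaks near its TSSs and 9 in its flanks. The main promoter peak (chr7:45704759-45705353) was 595 bp wide, had a −log10 q of 38.28, covered 3 of 5 TSSs, all of protein-coding transcripts, and had its summit at −118. It held 5 CCAAT boxes, all on the strand opposite to the gene, and a ROR element at −189. The CCAAT box is bound by the trimeric factor NF-Y, and 5 or more copies were found in 1.76% of promoter peaks. A ROR element was found in 3.59% of them. No E-box was found in this peak.

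Among the peaks near the TSSs of Dbp, only that within the gene held E-boxes. This peak of only 190 bp (chr7:45707655-45707844) lay in intron 2 of the protein-coding transcript Dbp-201. It was counted as a promoter peak because the retained-intron transcript Dbp-202 starts 45 bp from it. It was weak, with a fold enrichment of 2.81 (1.86 to 4.1), a −log10 q of 4.01 and 25 fragments (16.2 to 36.9) where 8.25 were expected. It held 2 copies of CACGTG and 1 of CACGTT, the last of which lay 1 bp from the summit. Of the 1994 promoter peaks no wider than this one, it was the only 1 with at least 3 E-boxes (0.0502%), and 1 of 14465 such distal peaks had as many. This width was taken after the peak had been seen. The remaining promoter peak (chr7:45704133-45704305), 783 bp upstream and thus just within the limit of 1 kb, had a fold enrichment of 2.72 (1.78 to 4) and lies also within 1 kb of a TSS of Car11, the neighbouring gene.

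Dbp had the most flank peaks of the 4 genes at the threshold of the peak list. Its 9 flank peaks put it at the percentile 87.6 of coding genes, while the other 3 members, with 5 each, were at 57.4. Many of them were weak. At a q of 1e-05 or below, promoter, body and flank peaks together numbered 5 for Dbp, 6 for Hlf, 7 for Tef and 8 for Nfil3. These totals do not rank the flank peaks alone, since the promoter peaks of Dbp also fell from 3 to 1 at this setting. Promoter and body peaks then numbered 1 and 0 for Dbp, 1 and 1 for Hlf, 2 and 0 for Tef, and 2 and 2 for Nfil3. With these left out, Tef had the most flank peaks and Dbp no longer led. The coding genes Car11 and Rpl18 are 405 and 5253 bp away. The strongest flank peak (chr7:45679643-45680551) had a fold enrichment of 10.28 (8.08 to 12.91) with 72 fragments, which exceeded that of the Dbp promoter with overlapping intervals. It lies within the gene Sec1 and held 2 AP-1 elements and 1 CACGTT. The next, with fold enrichments of 7.66 and 5.68, lay at the promoters of Rpl18 and Sphk2 and inside Sult2b1. In all, 3 of the 9 lay at promoters of other genes.

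Nfil3 spans 13.9 kb of chromosome 13 (chr13:52967209-52981073, minus strand) and has 1 annotated TSS. It had 2 promoter peaks, 2 body peaks and 5 flank peaks. The peak over the TSS (chr13:52980377-52981080) was 704 bp wide with a −log10 q of 7.37, and its summit lay at +274 in intron 1. A separate peak of 223 bp (chr13:52981191-52981413), 118 bp upstream of the TSS, had a fold enrichment of 3.89 (2.55 to 5.72) with 24 fragments. The gap between these peaks was 110 bp. Their GC contents were 69.2% and 74.4%, values that 10.8% and 1.97% of all promoter peaks reached, and their CpG ratios were 1.03 and 1.02, reached by 1.81% and 2.07%. Of the strongest promoter peaks of the 4 genes, that of Nfil3 had the highest GC content and the fewest fragments, and the part of base composition in this was not tested.

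Within the called peaks, a D-box was found only in the Nfil3 promoter peak. It is the element that NFIL3 and the PAR bZIP proteins themselves bind. The Nfil3 peak held 2, TTATGTAA at +361 and TTATGCAA at +487, both on the strand opposite to the gene and both in the part of intron 1 printed above. A D-box was found in 2.42% of all promoter peaks, and at least 2 in 16 of 16264 (0.0984%). The D-boxes lay 91 and 217 bp from the summit, so none was found when the search was confined to 50 bp on either side of the summit. When it was widened to 250 bp on either side, 2 of the 8 promoter peaks had a D-box (2.15% of all promoter peaks), the second being the weak upstream peak of Dbp, with TTATGCAA 6 bp beyond its edge (chr7:45704311-45704318). The Nfil3 promoter peak also held a ROR element at +22, in the first exon, and 2 CCAAT boxes. No match to TTACGTAA, the third form of the D-box searched, was found in any of the 35 peaks, which says only that these letters are not in these windows.

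**Figure D2:**
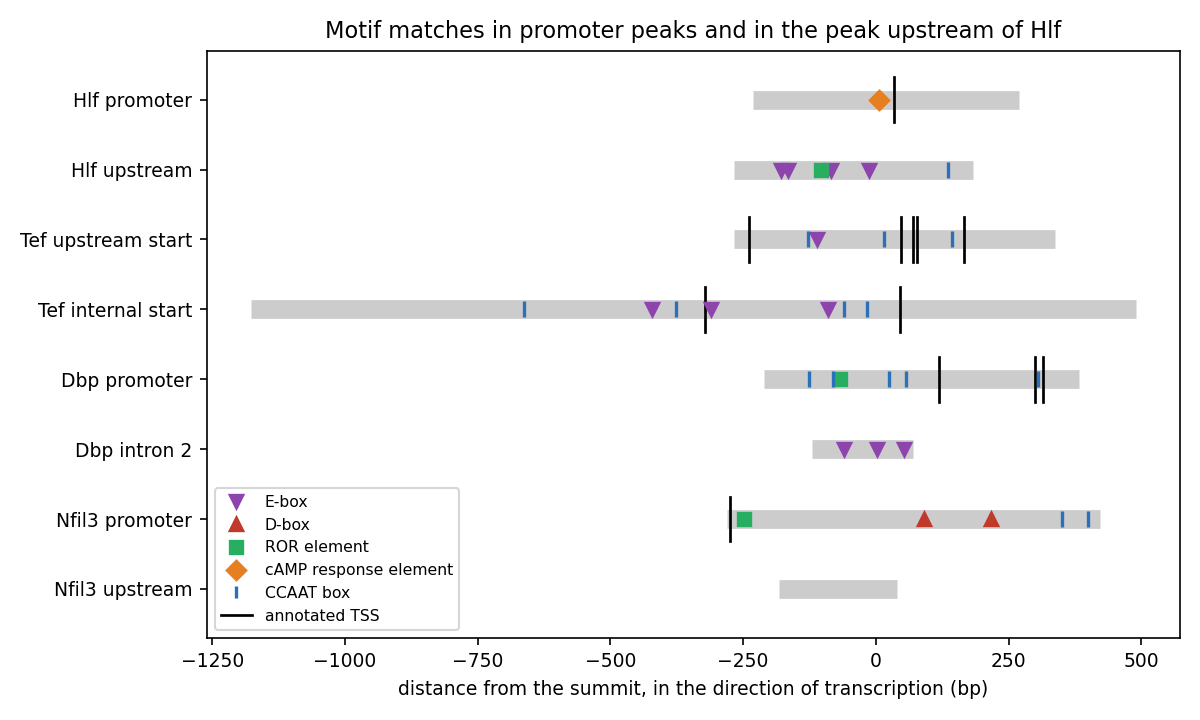
Motif matches (symbols) in promoter peaks of the 4 genes and in the peak upstream of Hlf. Positions are distances from the summit in bp along the direction of transcription. The weak upstream promoter peak of Dbp (chr7:45704133-45704305) is not drawn. Grey bars are the peaks to scale and black lines are annotated TSSs; E-boxes are seen at Tef, in Dbp intron 2 and upstream of Hlf, and D-boxes, within the peaks, only in that of the Nfil3 promoter.

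The highest fold enrichments around Nfil3 lay away from its own promoter. The body peaks, both in intron 1, had fold enrichments of 5.1 (3.4 to 7.38) and 3.51 (2.26 to 5.24) with 26 and 22 fragments, and the weaker one held a ROR and an AP-1 element. In the flanks, the peak with the highest fold enrichment, 9.19, was the promoter of the neighbouring gene Auh. Next came a peak with its summit at −20763 (chr13:53001545-53001907), with a fold enrichment of 8.58 (6.11 to 11.74), 37 fragments and a cAMP response element, and a peak at −13359 with a fold enrichment of 4.73. The fold interval of the peak at −20763 lay above that of the promoter peak. By fragments their intervals, 26.1 to 51 and 16.2 to 36.9, overlapped. A weak peak of 215 bp (chr13:52982814-52983028) lay 1741 bp upstream, outside the promoter limit, with a fold enrichment of 2.93 and 16 fragments. It overlapped by 65 bp an upstream exon that the RefSeq annotation gives for Nfil3 in predicted transcript models. A peak 52300 bp upstream, with a fold enrichment of 6.73, lay just outside the 50 kb.

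**Figure D3:**
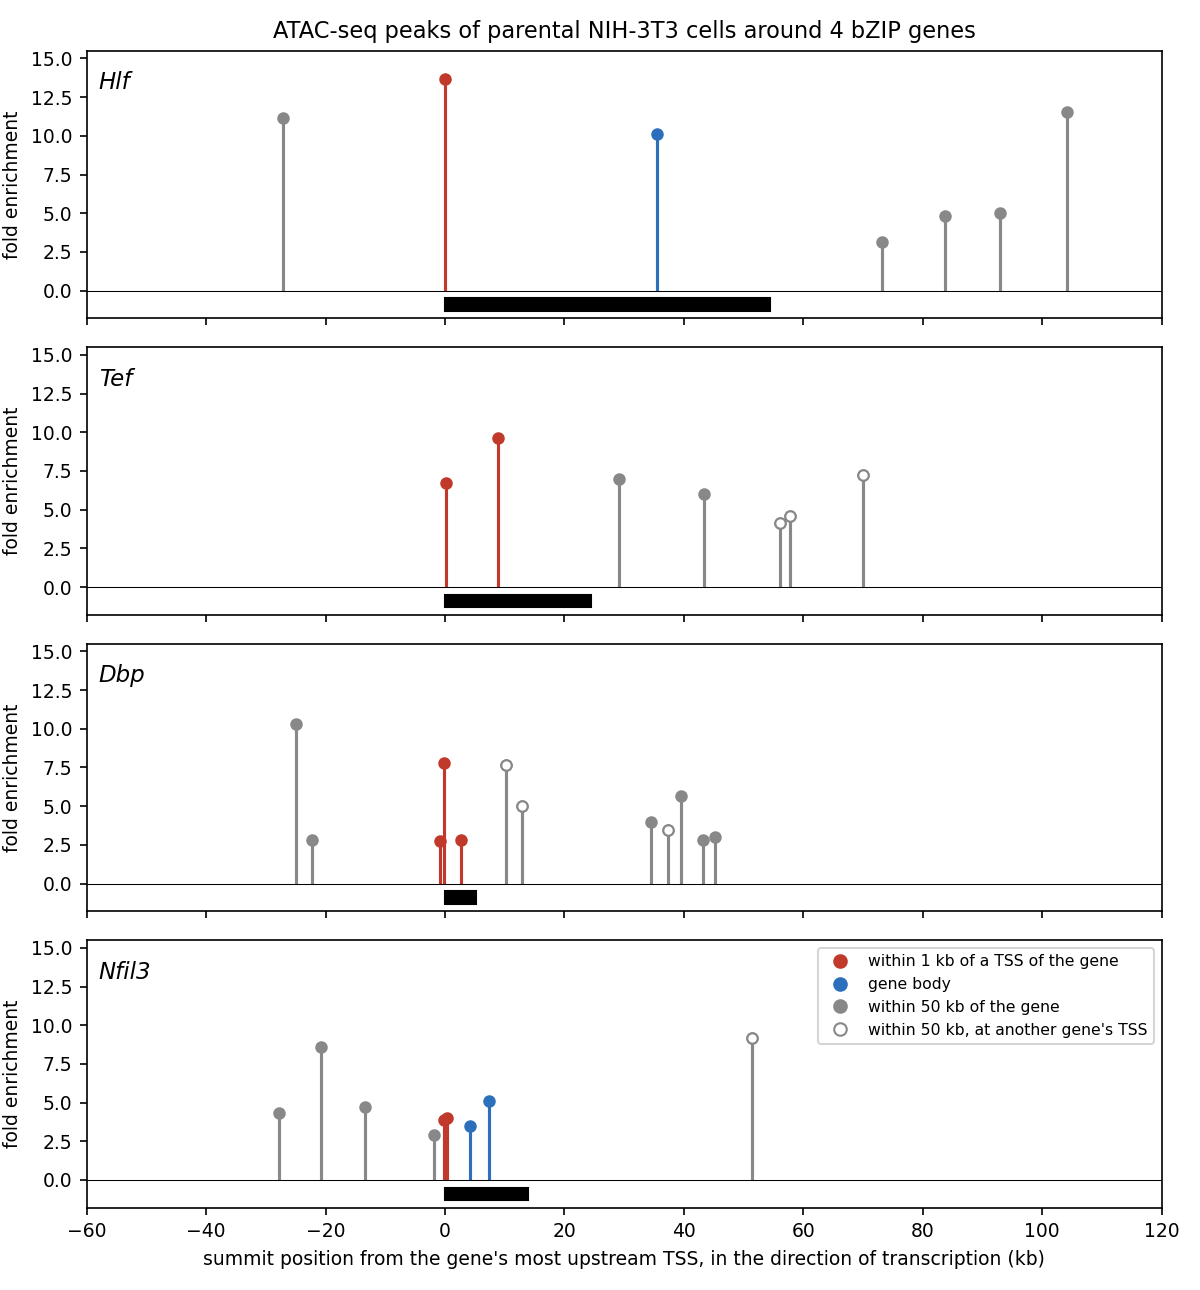
Fold enrichment (vertical axis) of all 35 peaks by the distance of the summit from the most upstream TSS of each gene, in kb along the direction of transcription. Black bars are the genes, red points are peaks within 1 kb of a TSS, blue points gene-body peaks, grey points flank peaks, and open points those at another gene's TSS; the Hlf promoter (13.69) is the highest point, and upstream and intron peaks of Hlf stand above 10.

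Across the 8 promoter peaks, the shares of elements were read beside those of all 16264 promoter peaks. E-boxes were in 3 of 8 peaks (25.6% of all), CCAAT boxes in 4 (49.4%), ROR elements in 2 (3.59%), and D-boxes and cAMP response elements in 1 each (2.42% and 3.5%). The AP-1 element TGACTCA, bound by FOS and JUN proteins, was in none (17.6%). Within 50 bp of the summit, the E-box was left in 1 of the 8 (5.64% of all) and the CCAAT box in 3 (19.9%). In the 20 member peaks more than 1 kb from any TSS, AP-1 elements were found in 6 (40.8% of all distal peaks), ROR elements in 4 (3.27%) and E-boxes in 3 (9.76%). These elements are short, and a match is a description of the sequence, not evidence of binding. In the RefSeq promoter windows, which matched all members with 5 windows of 32851, the cAMP response element was found at Hlf (1.79% of all windows), a ROR element at Nfil3 (2.61%), E-boxes in 2 windows of Tef (11.4%) and no D-box (1.78%).

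Among the 53 genes of bZIP factors, 43 had a promoter peak, or 39 of 49 (79.6%) without the 4 members, where 53.7% of all coding genes did. The median of the strongest promoter fold enrichment was 8.26, against 9.86 for all coding genes with such a peak. By this value Hlf ranked 4, Tef 15, Dbp 26 and Nfil3 42 of the 43. The highest were Creb1 (15.79), Cebpg (15.29) and Atf7 (14.06). The bZIP genes nearest to Hlf in this measure, in 1 library, were Atf7, Atf2 (12.89) and Creb3l2 (12.59), and all 3 values lay within the counting interval of Hlf. So did those of the other bZIP genes from rank 1 down to Atf6 (10.94) at rank 10, and the rank of Hlf is therefore not certain. The 10 bZIP genes without a promoter peak were Batf, Batf3, Cebpa, Cebpe, Creb3l1, Creb3l3, Creb3l4, Nfe2, Nfe2l3 and Nrl, several of them known from blood, liver or retina.

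**Figure D4:**
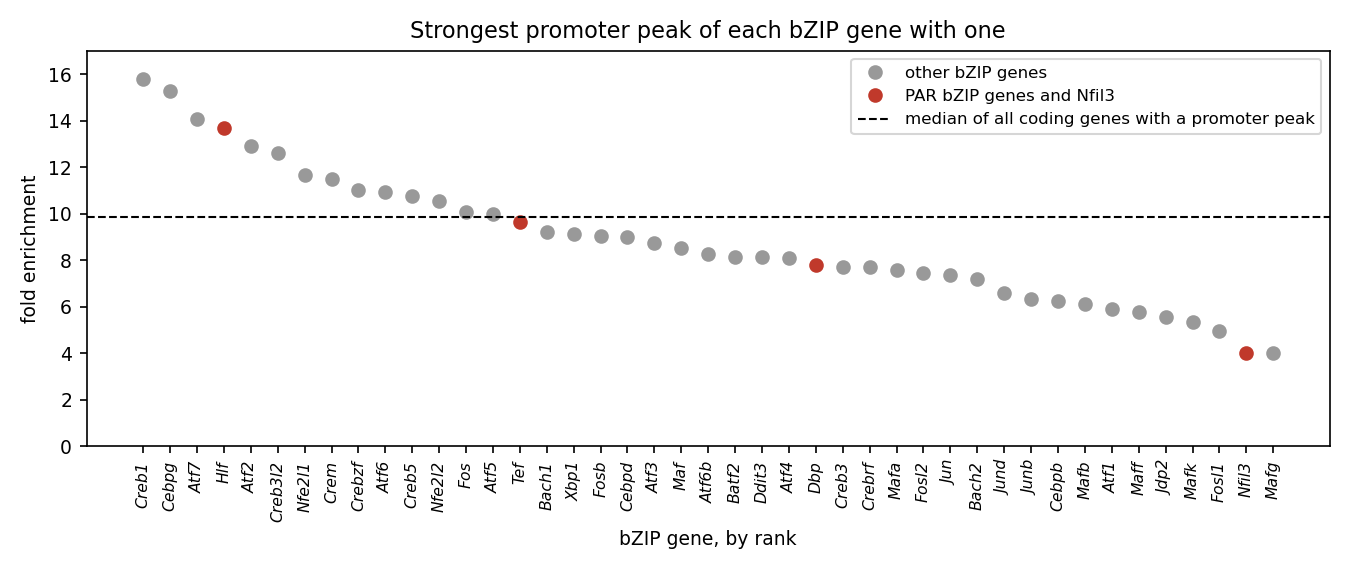
Fold enrichment of the strongest promoter peak (vertical axis) of the 43 bZIP genes with one, ranked from high to low, with the 4 members in red and the median of all coding genes with a promoter peak (9.86) as a dashed line. Hlf lies above the line at rank 4, Tef just below it at rank 15, Dbp at rank 26 and Nfil3 at rank 42.

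The genes around this family in the circadian clock were described in the same way. Of 20 clock genes, 18 (90%) had a promoter peak, where 53.7% of all coding genes did, with a median fold enrichment of 10.46 against 9.86, and the highest values were those of Ciart (14.91) and Arntl, which encodes BMAL1 (12.86). Rorb was among those with none. Of 18 genes known as targets of PAR bZIP factors, 9 (50%) had a promoter peak, a share close to the 53.7% of all coding genes and so no result about the targets, with a median of 10.13. The highest were Ciart, Por, the reductase that supplies electrons to cytochrome P450 enzymes (12.18), and Snai2 (11.67). Among the 9 targets without one were Nr1i3, Cyp7a1, Cyp2b10, Cyp2a4, Cyp2a5, Ces2a and Ppara, all known for their function in liver, and Lmo2. The lists overlap, and Ciart stands in both.

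The labelled cell type was checked against its markers. All 8 fibroblast markers (Col1a1, Col1a2, Vim, Thy1, Pdgfrb, Fn1, Twist1 and Prrx1) had a promoter peak, with fold enrichments of 3.41 to 10.52. Of all protein-coding genes, 53.7% had one. Neither blood marker (Ptprc and Cd3e), neuron marker (Rbfox3 and Snap25) nor hepatocyte marker (Alb and Apoa1) had one, and of the epithelial markers Krt8 had one (3.25) and Epcam and Cdh1 had none. Both endothelial markers, Cdh5 (12.82) and Pecam1 (8.4), had a promoter peak, so these short lists do not tell fibroblasts from endothelial cells. An open promoter does not measure transcription, so expression of these genes and of the 4 members was not assessed. The paper states that its 13 overexpressed TFs, HLF among them, were chosen as lacking endogenous expression in NIH-3T3, judged from published RNA-seq data. The peak list gives no number of reads. The median summit of all peaks lay under 29 fragments and the lowest under 10, so weakly open regions may be missing from the list at this depth.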

How the data were processed

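The peak list of 1 library, of parental NIH-3T3 cells, was used. According to the methods and the submitters' processing notes, paired-end reads were mapped to mm10 with STAR 2.5.3a by the authors, who kept unique alignments, dropped duplicates (Picard) and ran MACS2 2.1.1.20160309 on whole fragments. No Tn5 shift is described. Peak calling is said to follow that of the ChIP-seq data, which discarded blacklisted regions and peaks of the input, and how this applied to the list was not checked here. For each peak the authors deposited a fold enrichment (a ratio), −log10 p, −log10 q (lowest 1.3) and a score. Summit fragments were solved from the deposited fold and −log10 p by a routine tested on simulated data. They were within 0.02 of a whole number for 99.998% of the solved peaks, and 21 peaks were not solved.

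Peaks were placed on GENCODE M21 as promoter (interval within 1 kb of any TSS of the gene), body or flank (50 kb), counted from 1. Elements were searched on both strands, with palindromes counted once. The D-boxes were TTATGTAA, TTATGCAA or TTACGTAA. The E-boxes were CACGTG or CACGTT. The ROR element was TAGGTCA, the cAMP response element was TGACGTCA, the AP-1 element was TGACTCA and the CCAAT box was CCAAT. Members and lists were chosen with earlier results of these data known. Named were all promoter and body peaks of the members, up to 3 strongest flank peaks, the 3 strongest genes of a list and its genes without a peak where 10 or fewer. Other flank peaks, numbers of motif copies and the base composition of the upstream Hlf peak were picked once their values were known. Some genes that this rule names are not reported here. Other settings of q, fold, distance, TSS, flank and window were tried. Software was Python 3.11.15 with the packages pandas 2.3.3, NumPy 2.4.6, matplotlib 3.10.9 and SciPy 1.17.1.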

Additional observations from a re-analysis of the deposited data

How the results depend on the processing

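No paired analysis was possible because a single library holds no pairs. All changes below follow from the setting itself, which adds or drops peaks. The share of coding genes with a promoter peak moved to 52% at a q of 1e-05 or below, 48.7% at a fold enrichment of at least 5, 48.7% when a peak had to overlap a TSS, 51.9%, 56.5% and 62.8% within 500 bp, 2 kb and 5 kb of a TSS, 52.2% with TSSs of protein-coding transcripts and 53% from the summit. All 4 members kept a promoter peak under these settings except at a fold enrichment of at least 5, where 3 did. With flanks of 10 kb in place of 50 kb, the peaks in all numbered 2 for Hlf, 3 for Tef, 5 for Dbp and 5 for Nfil3, and with 100 kb they numbered 12 for Hlf and 12 for Tef. Dbp kept 1 promoter peak at a q of 1e-05 or below, at a fold of at least 5 and with overlap of a TSS, had 5 peaks in all under either of the first 2 settings (6 and 5 for Hlf, 7 and 5 for Tef, 8 and 3 for Nfil3), and had 1 body peak with overlap. Nfil3 had 0 promoter peaks, 1 body peak and 3 peaks in all at a fold of at least 5, 1 promoter peak with overlap of a TSS, and 4 promoter peaks and 1 body peak within 5 kb. Of the alternative values for these counts, shares and fold enrichments, 26 moved beyond 1.5 times (counts) or beyond the 95% interval (shares and folds), and 127 stayed within these limits, some with smaller changes. Of the motif counts, 9 moved and 15 stayed within 1.5 times. Within 50 bp of the summit, promoter peaks with a D-box fell from 1 to 0, with a ROR element from 2 to 0 and with an E-box from 3 to 1, and among all 35 peaks E-boxes went from 8 to 2, ROR elements from 7 to 1, CCAAT boxes from 13 to 5 and D-boxes from 1 to 0. Within 250 bp, D-boxes were in 2 peaks, both at promoters. Summits under 25 fragments or fewer, among them both Nfil3 promoter peaks, are the least certain.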
